A study of Rattus norvegicus with 6 samples.

Results

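The interleukin-1 (IL-1) family ligands and receptors Il1rn, Il1a, Il1b, Il1r1, Il1r2, Il1rap, Il1rl1, Il18 and Il33 were examined in the hippocampus of Aβ1-42-injected rats. A probe belonged to a gene when its accession was that gene's in RefSeq. This gave 11 of the 30367 probes on the array, for 8 of the 9 genes listed and of the 15168 genes with a named probe. No probe accession matched Il1r1, which was not analysed here. Of the 11 probes 8 were tested, for 7 genes, and each of these 8 was well above background on all 6 arrays.

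Hippocampal tissue of adult male SD (Sprague Dawley) rats was measured on single-colour Agilent arrays, 1 per sample. The AD group (n = 3) had received Aβ1-42 oligomers bilaterally into the lateral ventricles, a model made by injection in rats for which no transgene is stated, and the sham group (Sham, n = 3) had received the vehicle by the same route. The labels do not tie a sample to an animal, so p-values measure the spread between these samples. In bulk tissue, fewer cells of a type and less RNA per cell cannot be told apart.

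IL-1α and IL-1β, made from Il1a and Il1b, are the agonists of this system. They bind the type I receptor, which then recruits the accessory protein encoded by Il1rap and signals through MyD88 to NF-κB. Il1rn encodes the receptor antagonist, which occupies the type I receptor without recruiting the accessory protein, and Il1r2 encodes a decoy receptor that binds ligand and does not signal. Il18 and Il33 encode further cytokines of the family. Il1rl1 encodes ST2, the IL-33 receptor, which also pairs with the accessory protein. In the brain, microglia and infiltrating myeloid cells are the usual source of IL-1β, and IL-33 is stored in the nuclei of glia.

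The windows before the start sites of the 3 ligands of the type I receptor are shown because the results turn on the antagonist and the agonists. Each is the 250 bases before the annotated start, 5′ to 3′ on the strand of the gene, from RefSeq on GRCr8. Il1rn lies on the plus strand (chr3:27520072-27520321), Il1b on the minus strand (chr3:137036582-137036831) and Il1a on the minus strand (chr3:136990018-136990267). Capitals mark matches, on either strand, to 4 motifs: NF-κB as GGG, any 5 bases and then CC, C/EBP as TTGCNNAA, an ETS site as GAGGAAGT and the TATA box as TATAAA.
Il1rn: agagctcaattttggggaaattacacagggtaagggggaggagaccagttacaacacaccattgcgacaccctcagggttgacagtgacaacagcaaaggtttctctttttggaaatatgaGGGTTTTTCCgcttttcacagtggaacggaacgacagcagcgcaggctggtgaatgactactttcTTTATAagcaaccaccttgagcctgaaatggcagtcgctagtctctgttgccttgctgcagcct
Il1b: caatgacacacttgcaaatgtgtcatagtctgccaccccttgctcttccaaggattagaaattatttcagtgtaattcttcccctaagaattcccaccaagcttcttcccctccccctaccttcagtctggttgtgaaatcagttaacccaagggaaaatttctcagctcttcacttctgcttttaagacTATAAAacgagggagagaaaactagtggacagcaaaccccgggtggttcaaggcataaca
Il1a: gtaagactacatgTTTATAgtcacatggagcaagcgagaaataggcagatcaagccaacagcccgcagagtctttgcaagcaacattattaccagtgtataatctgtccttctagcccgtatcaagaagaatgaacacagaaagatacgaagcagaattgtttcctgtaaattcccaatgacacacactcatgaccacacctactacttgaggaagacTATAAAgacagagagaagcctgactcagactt

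The Il1rn window held 1 NF-κB match, beginning at base -129 from the start, and 1 TATA match on the opposite strand at -64. The Il1b window held 1 TATA match at -60. The Il1a window held a TATA match at -32 and another on the opposite strand at -237. Over all 33469 such windows of this build, the NF-κB letters were found in 42.3%, the TATA box in 12.9%, the C/EBP letters in 9.22% and the ETS letters in 2.04%, so a match to the NF-κB letters is common. Windows were found for 8 of the 9 genes. The matches do not overlap each other in the 3 windows printed.

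The comparison of AD with Sham asked whether mRNA levels of the family differ in the hippocampus after Aβ1-42 injection. Il1rap was the single member that passed the test and was up-regulated in AD by 1 of its 2 probes. The antagonist Il1rn and the agonist Il1b had the lowest changes among the members, with AD levels below every Sham level, but neither passed after adjustment over all probes. Limma called 1 of the 8 tested probes higher and 0 lower (adjusted p under 0.05), where over all 22768 tested probes 12.4% were called, 4.15% higher and 8.21% lower. At an unadjusted p under 0.05 there were 4 of 8, against 31.3% of all probes. The AD and Sham values did not overlap for 5 of the 8 probes, 3 with AD lower and 2 with AD higher, against 39% of all probes (23.2% with AD lower and 15.8% with AD higher). At a fold change of 2 or more with limma's unadjusted p under 0.05 there were 3 of 8 (Il1rn, Il1b and Il1r2), all lower in AD, against 2.24% of all probes, and with the unadjusted p of the methods' t-test there were 2 (Il1rn and Il1b), against 1.43%. The members were chosen with results of these data known, so these shares are a description.

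**Figure D1:**
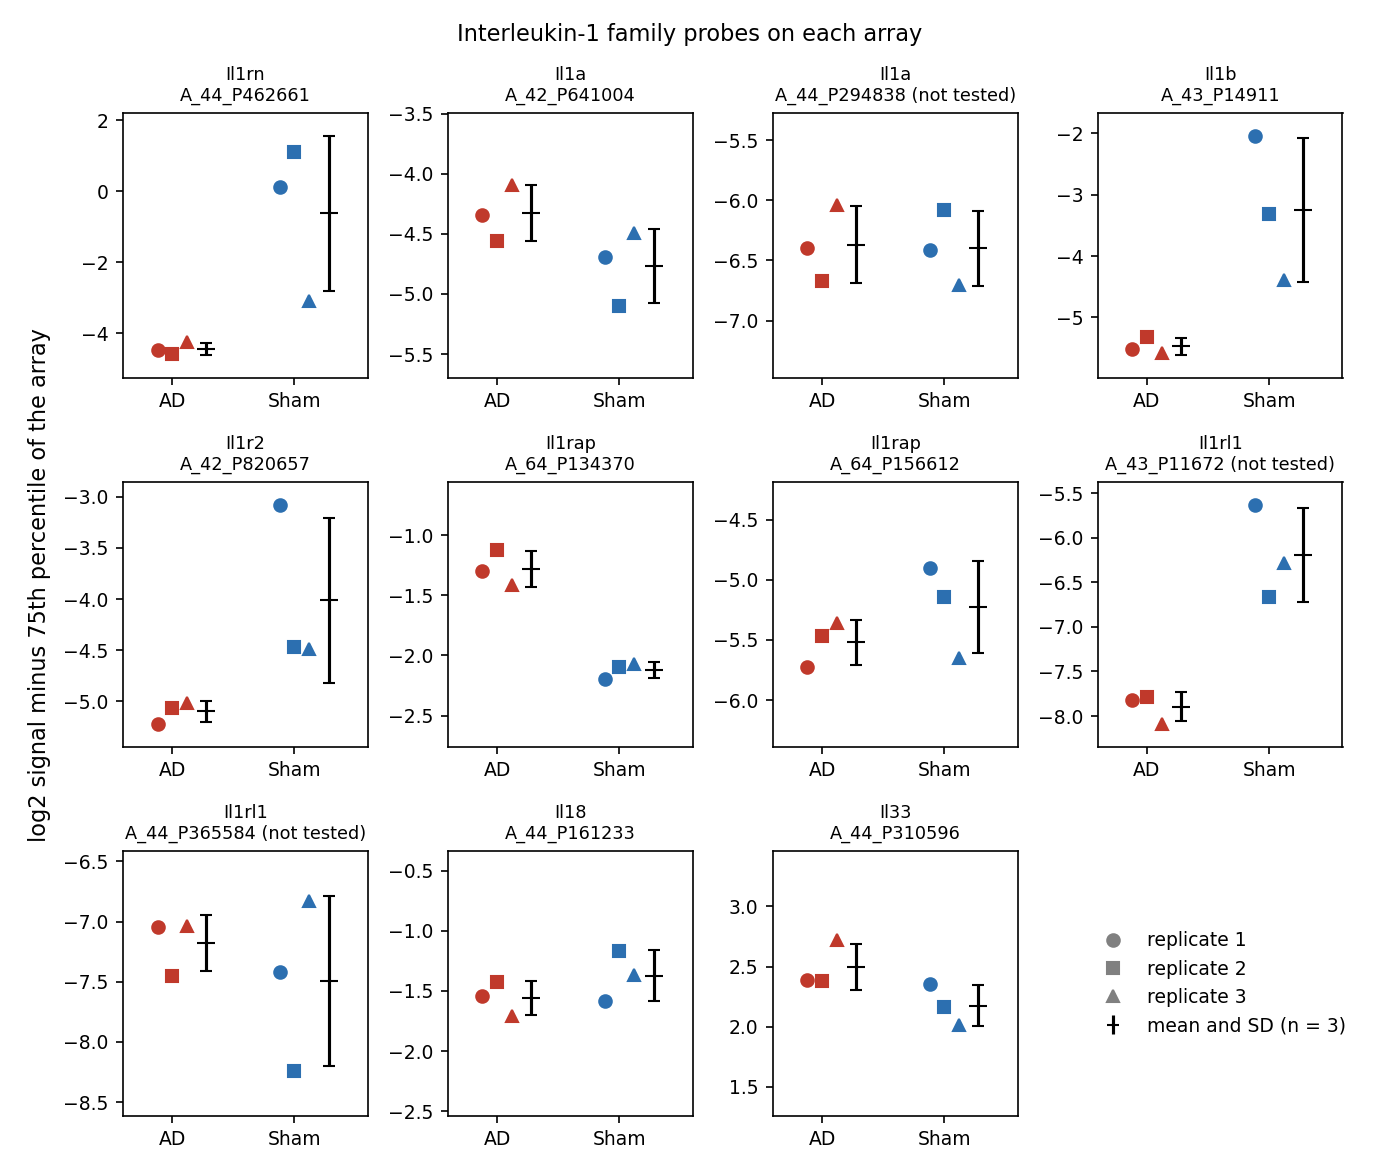
Level of each of the 11 probes on each array, as log2 processed signal minus the 75th percentile of the array, with AD (red) left of Sham (blue), 1 marker per replicate, and the mean and SD (n = 3) beside them. The vertical range differs between panels. Sham replicates 1 and 2 stand far above all other arrays for Il1rn, and the 3 AD values of the brighter Il1rap probe lie above its 3 Sham values.

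Levels below are log2 processed signals minus the 75th percentile of the array, so that 0 is the 75th percentile. They compare arrays for 1 probe and not different genes. Unscaled, this percentile lay between 794 and 931 on the AD arrays, and it was 753 and 755 on Sham replicates 1 and 2 and 429 on Sham replicate 3. The 3 AD arrays were scanned in 1 scan, Sham replicates 1 and 2 in another on the same day, and Sham replicate 3 alone on another day, so scan and group cannot be told apart. Limma called 2815 probes over the whole array and 0 with scan as a random block (3659 at an unadjusted p under 0.05), and neither a member nor a gene of the lists below passed in that fit, in which arrays of 1 scan correlated at 0.49. Without any 1 of the arrays other than Sham replicate 3, limma called 0 to 2 probes over the whole array. All 9 hippocampal neuron genes with a probe were bright enough to be tested. Their summed scaled signal was 27.4 to 29.2 in AD and 29.0 to 31.6 in Sham. This sum is the signals divided by the 75th percentile, added over the list. Snap25 contributed most to it (mean level 3.90 in AD and 4.03 in Sham), and Prox1 was dim (-4.20 and -3.99). The identity of the dissected tissue was not tested.

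The antagonist Il1rn (A_44_P462661, 1 spot per array) had levels of -4.48, -4.58 and -4.26 in AD, against 0.11, 1.09 and -3.08 in Sham. The AD values were close together and below all Sham values, and the Sham values were spread over more than 4 log2 units, with replicate 3 far below replicates 1 and 2. Before scaling, the signals were 40.0, 33.2 and 48.6 in AD and 811, 1607 and 50.8 in Sham. The change was -3.81 ± 1.02 on the log2 scale (SE, n = 3 per group, limma adjusted p = 0.0604), a fold of 14.0 with a 95% interval of 2.52 to 78.5. This was the lowest of the 22768 changes tested. Without Sham replicate 3, which is also the comparison within the first scan day, it was -5.04 ± 0.31 (adjusted p = 0.0152).

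The agonist Il1b (A_43_P14911) was measured by 8 to 10 spots per array. Its levels were -5.51, -5.32 and -5.58 in AD, against -2.04, -3.31 and -4.39 in Sham. All 3 AD values lay below the Sham values, and the Sham arrays each differed from the next by over 1 log2 unit, whereas the SD between spots of 1 array was 0.21 to 0.42. The unscaled signals were 19.6, 19.9 and 19.5 in AD and 183, 76.2 and 20.4 in Sham, so that Sham replicate 3 stood apart from AD mainly after division by its own low 75th percentile. The change was -2.22 ± 0.56 (adjusted p = 0.0521), 23rd from the lowest of all probes. Without Sham replicate 3 it was -2.80 ± 0.38 (adjusted p = 0.0203), and with normexp background correction, a model-based correction that pulls dim signals together, it was -1.15 ± 0.24 (adjusted p = 0.0331).

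The other agonist, Il1a, did not pass. Its probe with 9 to 10 spots (A_42_P641004) had levels of -4.34, -4.56 and -4.09 in AD and -4.70, -5.10 and -4.50 in Sham. The groups overlapped, and the change was 0.44 ± 0.19 (adjusted p = 0.188). With normexp correction, which shifted the median over all probes to -0.14, its sign turned (-0.098). The second Il1a probe (A_44_P294838) was well above background on 1 of the 3 AD arrays and on 0 of the 3 Sham arrays, and it was not tested.

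The change of Il1rn minus that of Il1b was -1.59 on the log2 scale. With 3 arrays per group a two-sided exact permutation test cannot go below p = 0.1, and its p was 0.2. It reached 0.1 with normexp correction, in the authors' log2 table and without Sham replicate 3. The difference was -2.24 without Sham replicate 3 and -0.70 without Sham replicate 2.

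Among the receptors, the decoy Il1r2 (A_42_P820657) had levels of -5.22, -5.07 and -5.01 in AD, against -3.08, -4.47 and -4.49 in Sham. The AD values were all lower, and Sham replicate 1 was far above the other arrays. The unscaled signals overlapped, at 24.0, 23.7 and 28.8 in AD and 89.0, 34.2 and 19.1 in Sham. The change was -1.09 ± 0.39 (adjusted p = 0.117). It was under 2-fold without Sham replicate 1 (-0.62) and with normexp correction (-0.68).

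The accessory protein Il1rap was measured by a pair of probes for different RefSeq transcripts. The brighter probe (A_64_P134370) had levels of -1.30, -1.12 and -1.42 in AD, against -2.19, -2.10 and -2.07 in Sham. The groups were well apart and each was tight, with SDs of 0.15 in AD and 0.06 in Sham. Il1rap rose by this probe by 0.84 ± 0.11 on the log2 scale (adjusted p = 0.0191), a fold of 1.79 with a 95% interval of 1.50 to 2.14. The unscaled signals were likewise apart, at 363, 365 and 348 in AD and 165, 176 and 102 in Sham. The change was 0.83 with scan as a random block (adjusted p = 0.179) and 0.86 without Sham replicate 3 (adjusted p = 0.0197), and without any 1 of the other 5 arrays the adjusted p was above the threshold, at 0.0517 to 0.118.

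The dimmer Il1rap probe (A_64_P156612) did not pass. Its levels were -5.73, -5.47 and -5.36 in AD and -4.90, -5.14 and -5.65 in Sham, which overlap, and its change was -0.29 ± 0.21 (adjusted p = 0.398). Its unscaled signals were 16.9, 18.0 and 22.6 in AD and 25.3, 21.4 and 8.56 in Sham. At the least they lay 0.20 (AD) and 0.12 (Sham) log2 units above the lowest signal well above background on an array. For the brighter probe this was 4.54 and 3.37. The 2 probes differed in sign, but 1 was this dim, and which transcript each one detects beyond its accession was not tested.

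Il1rl1, the IL-33 receptor gene, had 2 probes (A_43_P11672 and A_44_P365584), and neither was well above background on any array. Their unscaled signals were between 3.43 and 7.09 in AD and between 2.50 and 15.2 in Sham, and no fold is given.

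Neither of the remaining ligands passed. Il18 (A_44_P161233) had levels of -1.54, -1.42 and -1.71 in AD and -1.59, -1.17 and -1.37 in Sham. The groups overlapped, with a change of -0.19 ± 0.14 (adjusted p = 0.412, 95% interval -0.53 to 0.16). Il33 (A_44_P310596), an alarmin, had levels of 2.39, 2.38 and 2.72 in AD against 2.35, 2.16 and 2.01 in Sham. The AD values were all higher, though AD replicates 1 and 2 lay close to Sham replicate 1, and the change of 0.32 ± 0.14 did not pass (adjusted p = 0.181). The groups overlapped with median scaling and with normexp correction.

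**Figure D2:**
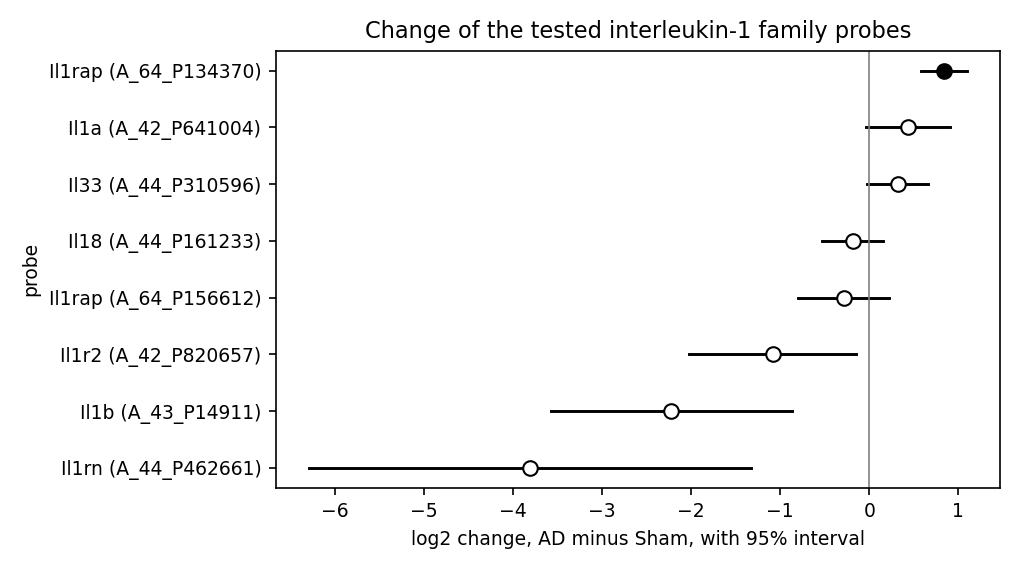
Log2 change, AD minus Sham, of the 8 tested probes, with the 95% interval of the limma fit (3 arrays per group). The filled point, the brighter Il1rap probe at 0.84, had an adjusted p under 0.05 over all tested probes and open points did not. The interval of Il1rn runs from -6.29 to -1.33.

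Across 17 alternative settings the signs of the 8 changes were kept except that of Il1a under normexp correction. Scan day as a block and leaving out Sham replicate 3 are the same fit and were counted once. Quantile normalization and the authors' log2 table gave nearly the same changes and were counted as 2. The change was -3.83 in each for Il1rn, and -2.28 and -2.21 for Il1b. The other filters, the replicate block and the methods' t-test leave each change as in the main fit by construction, so no sign could turn there. The change of Il1rn ran from -5.08 to -2.79 and passed in 4 of the 17 settings. That of Il1b ran from -2.80 to -1.15 and passed in 5, and that of the brighter Il1rap probe from 0.60 to 0.92 and passed in 9. The change of Il1r2 ran from -1.33 to -0.62. Il1r2, the tested Il1a probe and the dimmer Il1rap probe each passed in 1, and Il18 and Il33 in 0.

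Genes with the most similar profile over the 6 arrays were taken from the named probes by the smallest root mean square difference after each profile was centred on its mean. For Il1rn these were Mnda (0.63 log2 units), C3h15orf48 (0.73), the chemokine Ccl3 (0.91), the SLAM family receptor Slamf9 (1.06) and the myosin Myo1g (1.11), where the median over all named probes was 2.29. Mnda, for example, had levels of -6.00, -5.76 and -5.44 in AD and -2.27, -1.36 and -5.82 in Sham. All 5 were high on Sham replicates 1 and 2 and near the AD level on Sham replicate 3, and none of the 5 passed the test. The points are 6 arrays of 2 groups, so likeness here includes the difference between the groups.

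For Il1b the nearest profiles were those of the protein kinase inhibitor Pkib (0.34), Igsf6 (0.34), Igf1, which encodes insulin-like growth factor 1 (0.40), Calhm5 (0.41) and the amino acid transporter Slc38a4 (0.43), with a median of 1.31 over all named probes. Slc38a4 alone of these passed, with levels of -4.92, -4.94 and -4.93 in AD against -2.19, -2.78 and -3.07 in Sham and a change of -2.25 (adjusted p = 0.0184). The brighter Il1rap probe was nearest to Arap2, the receptor tyrosine kinase Ret, the synaptic protein Unc13c, the transcription factor Sox7 and Mplkip, at 0.06 to 0.09 with a median of 0.49, and all 5 rose, by 0.74 to 0.80. The nearest to Il1r2 were Or1e22, Lrrk1, Vps18, Srpx2 and Klhl29 (0.14 to 0.20, median 0.74). None of these passed. The lists for Il1a (Spata18, Nrm, Or13a25, Pgap6 and Lrrc36), Il18 (Hapln1, Atmin, Epha4, Ocel1 and Guca1b) and Il33 (Mybbp1a, Vwa3a, Ints4, Pomt2 and Elf1) were within 0.08 of their member and held no gene that passed, and these members themselves varied little.

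**Figure D3:**
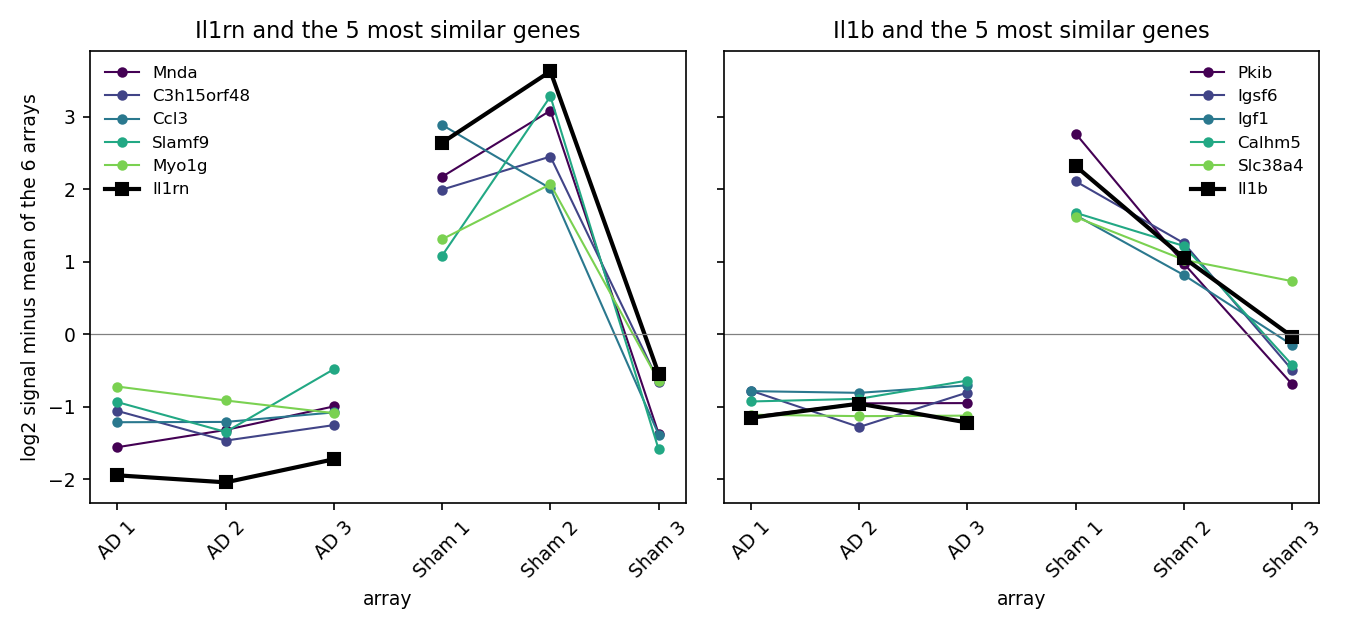
Log2 signal minus the mean of the 6 arrays for Il1rn (left) and Il1b (right), in black, and for the 5 genes with the most similar profile, in colours, on AD replicates 1 to 3 and then Sham replicates 1 to 3. Lines join the arrays of a gene within a group and carry no order of replicates. Sham replicate 3 lies near the AD arrays for the genes beside Il1rn.

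Other genes of the pathway were described from lists, 1 probe per gene, beside all 11949 genes with a tested probe, of which 4.08% were called higher and 10.6% lower with a median change of -0.05. Among other IL-1 family ligands and receptors 6 of 12 were tested. Il1rapl2, a relative of the accessory protein expressed in neurons, was down-regulated, with levels of -1.85, -1.68 and -2.05 in AD against -1.16, -1.17 and -0.87 in Sham. Its change was -0.79 ± 0.14 (adjusted p = 0.0266). It passed under each of the 5 other scalings and background corrections, of which quantile normalization and the authors' log2 table are nearly alike. It did not pass with scan as a random block (adjusted p = 0.198 with an estimated correlation). The other 5 genes, Il36rn, Il36g, Il18bp, Sigirr and Il1rapl1, did not pass, and Il36a, Il36b and Il1f10 were not well above background on any array. The median was 0.08 and turned to -0.21 under normexp correction.

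Of 21 genes of IL-1 receptor signalling 15 were tested, 2 called higher and 2 lower, with a median of -0.08 that was 0.00 with the 75th percentile over detected probes. The median of -0.08 was the change of the Tollip probe used, and the other tested probe of Tollip changed by -1.07. Map3k7, which encodes the kinase TAK1, fell by 0.54 ± 0.08 on the log2 scale (adjusted p = 0.0218), and its levels were -0.05, -0.08 and -0.19 in AD against 0.44, 0.46 and 0.41 in Sham. Myd88, the adaptor of the receptor, fell by 0.45 ± 0.11 (adjusted p = 0.0471), at 0.55, 0.58 and 0.52 in AD against 0.88, 0.94 and 1.18 in Sham. Rela, which encodes the NF-κB subunit p65, rose by 0.55 ± 0.11 (adjusted p = 0.0322), with a change of 0.27 on its other probe. Nfkb2, another subunit, rose by 0.62 ± 0.15 (adjusted p = 0.0494). Groups did not overlap for any of the 4, which was so for 39% of all tested probes. The 4 were named because they passed the test, so this adds no support. The adjusted p of Myd88 was 0.0679 with the 75th percentile over detected probes and 0.0598 with quantile normalization, where Nfkb2 was also lost (0.0505), and 0.0595 in the authors' log2 table. Under normexp correction Map3k7 alone passed (Myd88 0.0756, Rela 0.109 and Nfkb2 0.383). All 4 were lost with scan as a random block (adjusted p = 0.184 to 0.290 with an estimated correlation).

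Inflammasome and cytokine processing genes, which release mature IL-1β and IL-18, gave 0 calls among 7 tested of 13 listed. The median was -0.04 and became 0.04 with the 75th percentile over detected probes. The widest changes were -0.41 ± 0.13 for the adaptor Pycard (adjusted p = 0.0995) and 0.38 ± 0.11 for the protease Casp4 (adjusted p = 0.0760), and Nlrp3 and P2rx7 were not well above background on any array. Casp4 passed with the 75th percentile over detected probes (adjusted p = 0.0418).

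Genes that IL-1 induces in many cells gave 0 calls among 14 tested of 22 listed, with a median of -0.22. The chemokine Ccl3 had levels of -4.59, -4.58 and -4.45 in AD, against -0.49, -1.36 and -4.76 in Sham, so that Sham replicate 3 lay below all AD values. Its change was -2.34 ± 1.05 (adjusted p = 0.19), and -3.62 without Sham replicate 3 (adjusted p = 0.0152). The chemokine Cxcl1 was at -5.40, -4.78 and -6.40 in AD and -2.92, -3.86 and -4.85 in Sham, with a change of -1.65 ± 0.59 (adjusted p = 0.12), and it passed under normexp correction (-0.87, adjusted p = 0.0353). Ccl20, Sele and Zc3h12a were not well above background on any array.

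**Figure D4:**
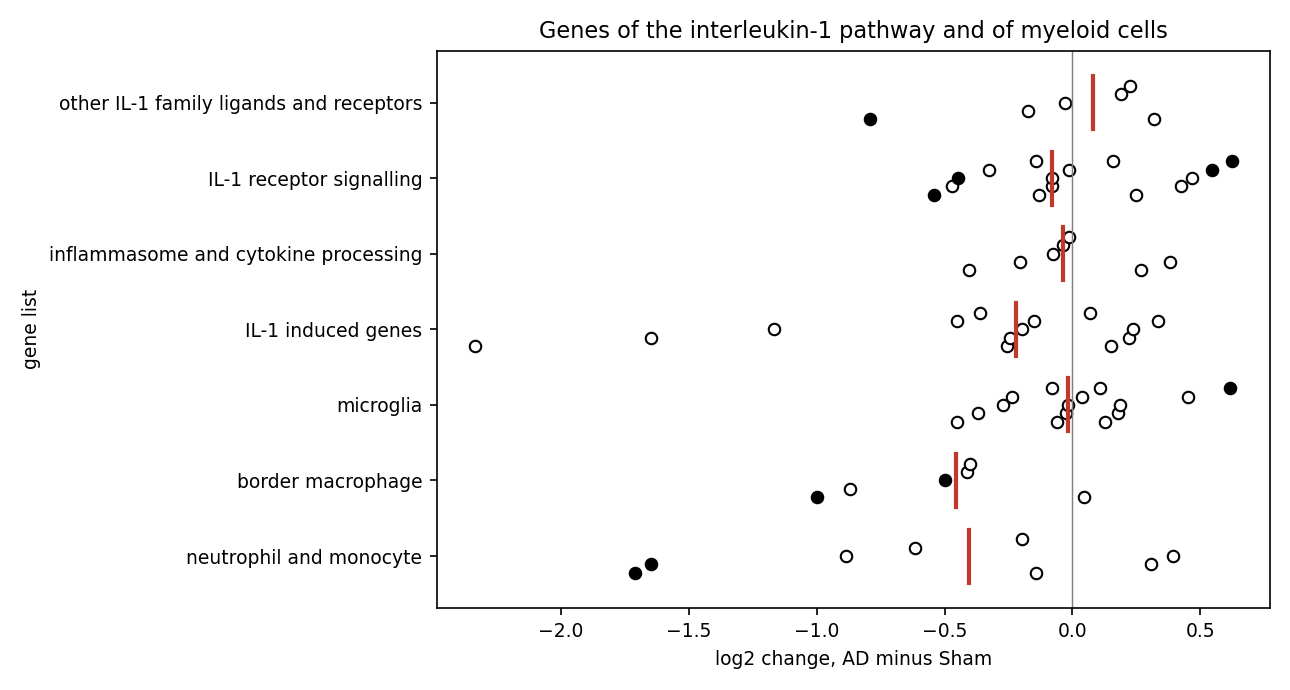
Log2 change, AD minus Sham, of each tested gene in 4 lists of the IL-1 pathway and 3 lists of myeloid cell markers. Filled points had an adjusted p under 0.05 over all tested probes, open points did not, the red bar is the median of the list, and points are shifted vertically for display. The medians of the border macrophage and the neutrophil and monocyte lists are -0.46 and -0.40 and that of microglia is -0.02.

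Markers of myeloid cells, which make these cytokines, are given beside the levels of Il1rn and Il1b. All 15 microglia markers with a probe were tested, and 1 was called, the transcription factor Sall1, higher by 0.62 ± 0.08 (adjusted p = 0.0197), though by 0.15 under normexp correction (adjusted p = 0.421) and with an adjusted p of 0.181 with an estimated correlation (scan as a random block). Their summed scaled signal was 31.3 to 37.2 in AD and 37.6 to 38.5 in Sham. Of 6 border macrophage markers 2 fell. Lyve1, a hyaluronan receptor, had a change of -0.50 ± 0.11 (adjusted p = 0.0365) and the lectin Clec10a had an adjusted p of 0.0438, but neither passed with the 75th percentile over detected probes (adjusted p = 0.0589 and 0.0569) or with an estimated correlation (adjusted p = 0.223 for each), and Lyve1 did not under normexp correction (0.0823). This list's summed signal was 0.71 to 0.78 in AD and 1.04 to 1.43 in Sham. Clec10a was at -1.64, -1.64 and -1.61 in AD and -0.28, -0.45 and -1.16 in Sham, a difference of means with an SE of 0.23.

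Of 8 tested neutrophil and monocyte markers 2 fell, the calgranulins S100a8, with a change of -1.65 ± 0.25 (adjusted p = 0.0219), and S100a9, with -1.71 ± 0.37 (adjusted p = 0.0379). With an estimated correlation their adjusted p was 0.192 and 0.267, and that of S100a9 was 0.0614 without Sham replicate 3. The list's summed signal was 0.53 to 0.87 in AD and 0.89 to 1.08 in Sham, and Ltf, Mmp8 and Ly6c were not well above background on any array. S100a8 was at -3.73, -3.72 and -4.55 in AD and -2.54, -2.35 and -2.16 in Sham, so it did not share the low value that Sham replicate 3 had for Il1rn. The part of these cells in the levels of Il1rn and Il1b was not tested.

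Other tissues of the dissection were read in the same way. Choroid plexus genes gave 0 calls among 10, but all 10 had a higher mean in AD, with a median change of 2.53 on the log2 scale. The widest were those of Cltrn (3.81 ± 1.18, adjusted p = 0.0851) and the potassium channel Kcnj13 (3.77 ± 1.15, adjusted p = 0.0815). Relative to the Sham mean of each gene, the median level of the list was 3.22, 0.63 and 4.06 in AD and -0.77, 0.00 and 0.69 in Sham. AD replicates 1 and 3 stood far above the other arrays, and AD replicate 2 lay within the Sham range. The list's summed signal, to which the abundant carrier protein gene Ttr contributes most, was 82.4 to 147 in AD and 27.4 to 103 in Sham. The AD levels of Il1rn and Il1b were close together and dim. At the least they lay 1.09 (Il1rn) and 0.35 (Il1b) log2 units above the lowest signal well above background on an AD array. Whether the choroid plexus pattern carries into these levels was not tested.

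Erythrocyte genes gave 0 calls among 5, with a median change of -1.25 and summed signals of 6.79 to 15.4 in AD and 12.9 to 86.5 in Sham. The haemoglobin genes Hbb-b1 (-2.76 ± 1.11, adjusted p = 0.154) and Hbb (-2.59 ± 0.95, adjusted p = 0.125) had the widest changes. Probes of the same gene disagreed, since the other tested probe changed by 1.26 for Hbb and 1.65 for Hba-a1, though by -1.96 for Hbb-b1. The list median was the change of the Hba-a1 probe used. Alas2 (0.12) and Slc4a1 (0.66) had higher means in AD, so the list had no common direction. Of 8 astrocyte genes 0 were called.

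Among 9 oligodendrocyte genes 3 rose, the tight junction gene Cldn11 by 0.64 ± 0.11, the myelin enzyme gene Cnp by 0.55 ± 0.11 and the myelin gene Mobp by 0.55 ± 0.13 (adjusted p = 0.0253, 0.0319 and 0.0449). Under normexp correction Cldn11 alone passed, and with an estimated correlation none did (adjusted p = 0.199, 0.240 and 0.277). Of the 9 means 8 were higher in AD, but that of Mbp was lower on both of its probes (-0.33 and -0.68). The list's summed signal, to which Mbp contributes most, was 106 to 126 in AD and 116 to 168 in Sham. Of 6 endothelial genes the tight junction gene Cldn5 rose by 0.42 ± 0.09 (adjusted p = 0.0342), but it did not pass with median scaling (0.0652) or with an estimated correlation (adjusted p = 0.240). Of 7 leptomeningeal genes Ptgds, a prostaglandin synthase that oligodendrocytes also express, rose by 0.91 ± 0.09 (adjusted p = 0.0184), and of 9 hippocampal neuron genes Syt1, the synaptic vesicle calcium sensor, fell by 0.64 ± 0.08 on the log2 scale (adjusted p = 0.0191). Both were lost with scan as a random block (adjusted p = 0.174 with an estimated correlation). Neither gene stood for its list, in which no other gene passed. The leptomeningeal median was -0.23, with 4 of 7 means lower in AD. The neuron median was 0.06, with 5 of 9 means higher.

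Of 5 lymphocyte genes Cd3e was called higher (adjusted p = 0.0282). Its probe was well above background on the 3 AD arrays and on 0 of the 3 Sham arrays, so it entered the test only through AD and this call supports nothing. Its levels were -4.76, -4.92 and -4.45 in AD against -7.80, -7.20 and -6.09 in Sham, at least 2.11-fold higher in AD when Sham is set to the lowest signal well above background on each array. The call was lost under normexp correction (0.513) and with an estimated correlation (adjusted p = 0.191). The part of these tissues in the members' levels was not tested.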

How the data were processed

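Total RNA of 3 AD and 3 Sham hippocampal samples had been labelled with Cy3 and hybridised to rat Agilent arrays. The authors deposited scanner output of Agilent Feature Extraction 11.0.1.1, in which the intensity of each spot is on a linear scale after background subtraction. They also deposited a value table on a log2 scale, whose scaling and centring are not given in the sources used here. Each of its columns had a median of 6.56, and it ran in the direction of the scanner values. Its columns for AD replicates 2 and 3 matched the scanner arrays of the opposite number (r of 0.994 and 0.999 across probes), which leaves group comparisons unaffected, and the scanner's numbering is used here.

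Controls and spots flagged as outliers (400 to 559 per array) were dropped, log2 signals were averaged over the spots of a probe, and the 75th percentile of each array was subtracted. No spot was saturated (0 per array), and 70.7% to 79.7% of the probes were well above background. Testing required a signal well above background on 3 or more of the 6 arrays (22768 probes). The number of arrays limits the precision. Accessions were matched to RefSeq symbols of GRCr8 (15252 of 26997), which named 59.3% of the probes, and no probe coordinates are given.

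AD was compared with Sham by lmFit and eBayes in limma 3.58.1 (R 4.3.3), with two-sided p-values adjusted by Benjamini-Hochberg over the 22768 probes (threshold 0.05). The fit was tested on simulated data first. Alternatives were normexp with an offset of 50 (on the median signal, since the files hold no mean signal), quantile normalization, median scaling, the 75th percentile over probes detected on all arrays, the authors' log2 table, 2 other filters, scan as a random block (statmod 1.5.0), scan day or replicate number as a fixed block, array weights, the methods' t-test, and leaving out each array.

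Named genes were every probe of the members, up to 4 called genes with the largest change in each pathway list (or the 2 largest changes where none was called), and the 5 most similar named probes of each member. Genes outside this rule, among them those of the cell type marker lists, were named after their values were seen. The members, lists and alternatives were chosen with earlier results of these data known.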

Additional observations from a re-analysis of the deposited data

How the results depend on the processing

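Over all probes, 2815 were called, 1718 with normexp correction (17.8% of them higher, against 33.6%, and a median change of all probes of -0.14), 2671 with the 75th percentile over detected probes (53.2% higher), 4443 with scan day as a block (the same fit as without Sham replicate 3), 10001 with array weights, 1837 by the methods' t-test and 511 at a fold change of at least 2 with an unadjusted p under 0.05, or 326 with that p from the methods' t-test, a threshold added after the data were seen. The count was 0 without the filter on dim probes, with scan as a random block and with the replicate block, where 7079, 3659 and 6478 probes had an unadjusted p under 0.05. It ran from 0 to 4443 when each array was left out, the highest without Sham replicate 3.

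Of the member probes 1 was called. The count was 3 with normexp correction, 2 with median scaling, 0 without the filter on dim probes, 3 with the filter on all 6 arrays, 0 with scan as a random block, 3 with scan day as a block, 6 with array weights, 3 at the fold change threshold, 2 at that threshold with the methods' t-test and 0 to 3 when each array was left out, the highest again without Sham replicate 3. The tested Il1a probe turned to -0.098 with normexp correction (adjusted p = 0.711). The difference between the changes of Il1rn and Il1b kept its sign in all 13 alternatives run for it, 2 of which are the same fit. The array weight fit stopped before its tolerance was reached. The cause of these shifts was not tested.

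Whether the replicate numbers of AD and Sham pair the samples is not stated, and the main fit did not pair them. Deviations of same-numbered arrays from their group means correlated weakly, at 0.03, 0.07 and 0.14 across probes. AD replicate 1 correlated best with Sham replicate 2 (0.06), and AD replicates 2 and 3 best with the Sham array of the same number. These values do not settle whether the samples were paired. With the replicate block 0 of all probes and 0 of the member probes were called. The difference between Il1rn and Il1b was -1.59 there, as in the main fit by construction.

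Dim probes moved with the background correction, with normexp changes of -1.15 for Il1b and -0.68 for Il1r2, and the arrays numbered 3 per group.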
